A study of Canis lupus familiaris and Eptesicus fuscus and Equus caballus with 6 samples.

Results

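Class I endogenous retroviruses (ERV1) whose models were listed for horse and not under the same name for dog numbered 85, of 159 ERV1 models and 986 repeat models in the horse mRNA file. They were chosen by name alone: the class that ends the identifier had to be LTR/ERV1, and the identical identifier had to be missing from the list of dog models. The mRNA files of the series held 1618 distinct model names in all. The values come from the mRNA library of an adult horse testis (Equus caballus), set where needed beside the mRNA library of an adult dog testis (Canis lupus familiaris). The series also has an adult big brown bat (Eptesicus fuscus) and a small RNA library of each species, which were not used for these results. Tissue was snap frozen and RNA extracted with TRIzol, and the labels name no breed, age in years, treatment or number of animals. Each species had 1 mRNA library, so no difference below has a replicate check and none was tested. The files hold repeat models and no marker genes, so the tissue label could not be checked against testis markers.

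Endogenous retroviruses are the remains of retroviruses that entered the germ line. ERV1 is the class related to gammaretroviruses. A full copy has an internal region, which encodes the gag, pol and env proteins, between a pair of long terminal repeats (LTRs), which hold the promoter and the polyadenylation signal. Recombination between the LTRs of a copy leaves a solo LTR, and solo LTRs are common in mammalian genomes. In the mammalian male germ line such elements are held down by DNA methylation and by piRNAs. Repeat databases list the internal region and the LTR as separate models, and use the suffix EC for models built from Equus caballus.

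The horse library held 666118 reads on the 986 models, of which rRNA models took 72.1% and the 722 transposable element models took 174903 reads. A read here is a value rebuilt from the deposited TPM, a measure of reads per model length that is scaled to the same sum in each file. The bounds given with each TPM are those deposited by the authors. In bulk tissue, fewer cells with a transcript and less transcript per cell cannot be told apart. Levels are per model and not per genomic copy, so the number of copies and the level per copy cannot be told apart either. Nor can transcripts that start in an LTR and longer transcripts that carry one.

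Nearly every horse-only ERV1 model had reads. TPM was above 0 in 84 of the 85 models (98.8%), where 60.8% of all element models of the horse library, these included, had a TPM above 0. At least 10 reads were found for 70 of them (82.4%), against 37.7% of all element models, with rebuilt reads rounded to 2 decimals. ERV54C-EC_LTR, at 9.998 reads, counts among the 70 by this rounding. The median TPM was 177 over the 85 models, compared with 8.59 over all 722 element models. Levels ran over a wide range: 8 models were above 1000 TPM, 49 lay between 100 and 1000, 24 between 10 and 100, 3 above 0 and at or under 10, and 1 at 0 TPM. Together the models held 12421 reads, which was 7.10% of the element reads (exact 95% binomial interval 6.98 to 7.22%, counting error only). This was 97.5% of all ERV1 reads and 69.6% of the reads of all LTR elements in the horse library.

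**Figure D1:**
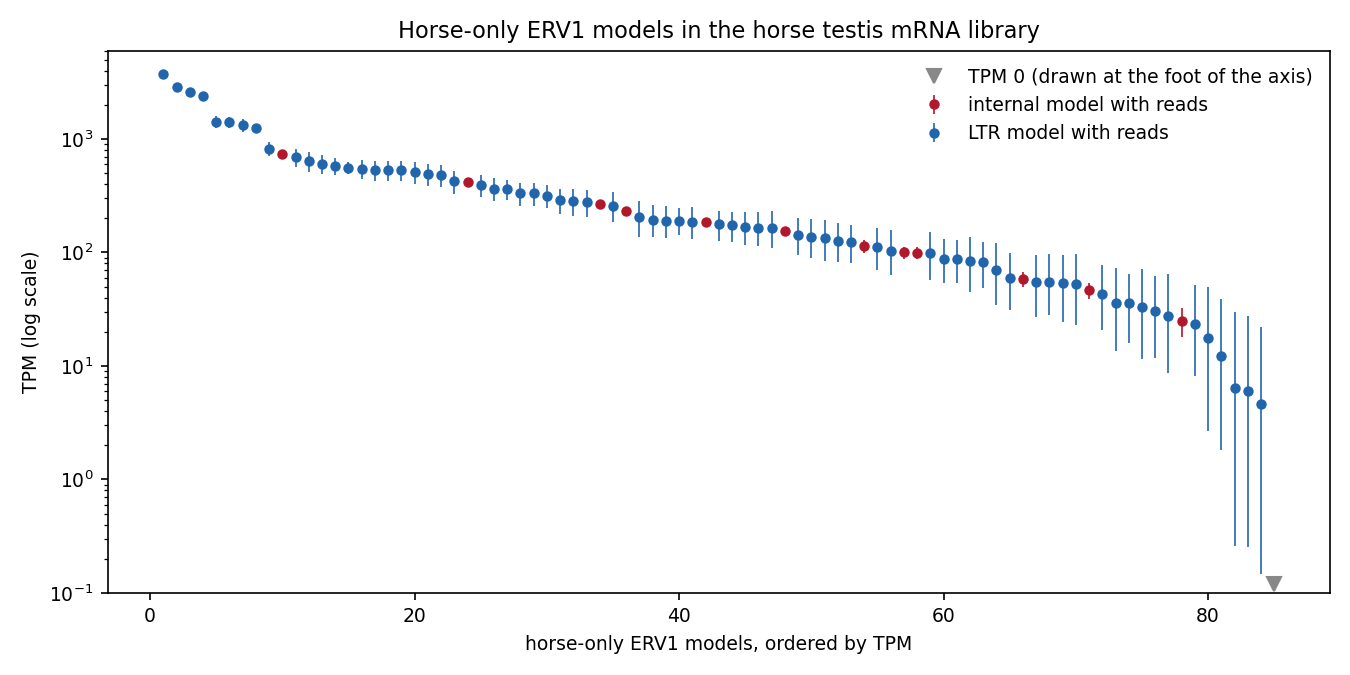
TPM (log axis) of each of the 85 horse-only ERV1 models in the horse testis library, ordered from high to low, with bars for the bounds deposited by the authors. LTR models fill both ends of the order, from 3754 TPM down to 0, while the internal models lie between 24.7 and 744 TPM.

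The 1 silent model was MER66B, an LTR of 486 nt. It was also the only member without the EC suffix, and all 84 EC models had reads. Its deposited upper bound was 17.2 TPM, close to the 17.0 TPM that 3 reads would give at this length. The other MER66 models of the horse library, MER66A, MER66C and MER66-int, which are listed for dog too, were likewise at 0 TPM. At the low end of the expressed models, LTR23_EC and LTR75B_EC each had 1 read (6.38 and 4.64 TPM) and LTR12_EC had 1.13 reads (6 TPM). For these a TPM above 0 rests on about 1 read, and their deposited bounds reach from 0.261 to 30.1 TPM in LTR23_EC, from 0.148 to 21.8 TPM in LTR75B_EC and from 0.251 to 27.3 TPM in LTR12_EC. They cannot be set apart from the silent MER66B at this depth.

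Precision followed the number of reads. In the 25 models with at least 100 reads the deposited upper bound was 1.11 to 1.47 times the lower one. In the 45 models with 10 to 100 reads it was 1.49 to 3.55 times the lower one, and in the 14 models with fewer reads 3.74 to 148 times. Of the 22 models with reads but fewer than 20 of them, 11 had a rebuilt count within 0.05 of a whole number. The estimator divides a read that matches several models between them, which leaves fractions of a read.

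ERV1 models that carry the same name in both species stood much lower in the same library. Copies in the genome were not counted, and the EC models were built from horse while most shared models were not. A TPM of 0 therefore does not tell a silent family from one with few or no copies in horse. Of 74 such models 29 (39.2%) had a TPM above 0 in horse, 12 had at least 10 reads, and their median TPM was 0. They held 325 reads, or 0.186% of the element reads (0.166 to 0.207%). Among them 45 were at 0 TPM, 7 were above 0 and at or under 10 TPM, 21 lay between 10 and 100, and 1 lay above 100. That 1 model was ERV54-EC_LTR, the only ERV1 model with the EC suffix that the dog file lists as well. It had 269 TPM (38.2 reads) in horse and 43.6 TPM (6.97 reads) in dog, where it was the highest of the shared ERV1 models too. Without it the highest shared model in horse was MER31A, with 84.1 TPM, which is below the median of the horse-only models.

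Horse-only models of other classes also mostly had reads, so a high share with reads was not a property of ERV1 alone. All 11 horse-only ERVK models (the class II retroviruses), 13 of 14 horse-only ERVL models (class III), 15 of 16 horse-only L1 models (the autonomous LINEs) and all 14 horse-only tRNA-derived SINE models had a TPM above 0. Median TPM was 177 in the horse-only ERV1 models, 126 in the ERVK, 89.4 in the ERVL, 2400 in the L1 and 10153 in the SINE models. Of the 100 ERVL models named alike in both species, 56 had reads in horse, with a median of 3.15 TPM. The horse-only ERV1 models were more numerous and held more reads in sum than these retroviral classes, of which the ERVK models held 2348 reads (1.34% of element reads) and the ERVL models 657 (0.376%).

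The horse-only models in horse took 7.10% of the element reads, against 3.44% (3.33 to 3.56%) for the 62 dog-only ERV1 models in dog. Of the dog-only models 53 (85.5%) had a TPM above 0 and 28 had at least 10 reads, and they held 3573 reads in all. Over all 683 dog element models, 278 (40.7%) had a TPM above 0 and 130 had at least 10 reads. The dog library held 103795 element reads, against 174903 in horse, so counts past a fixed number of reads are not matched in depth. The median was 177 TPM in the horse-only models and 36.2 TPM in the dog-only ones, where the median of all dog element models was 0. The highest dog-only model was CfERVF1_LTR, with 1800 TPM. The models differ between the files and each file is scaled to its own sum, so these values stand side by side and give no fold change for any element.

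**Figure D2:**
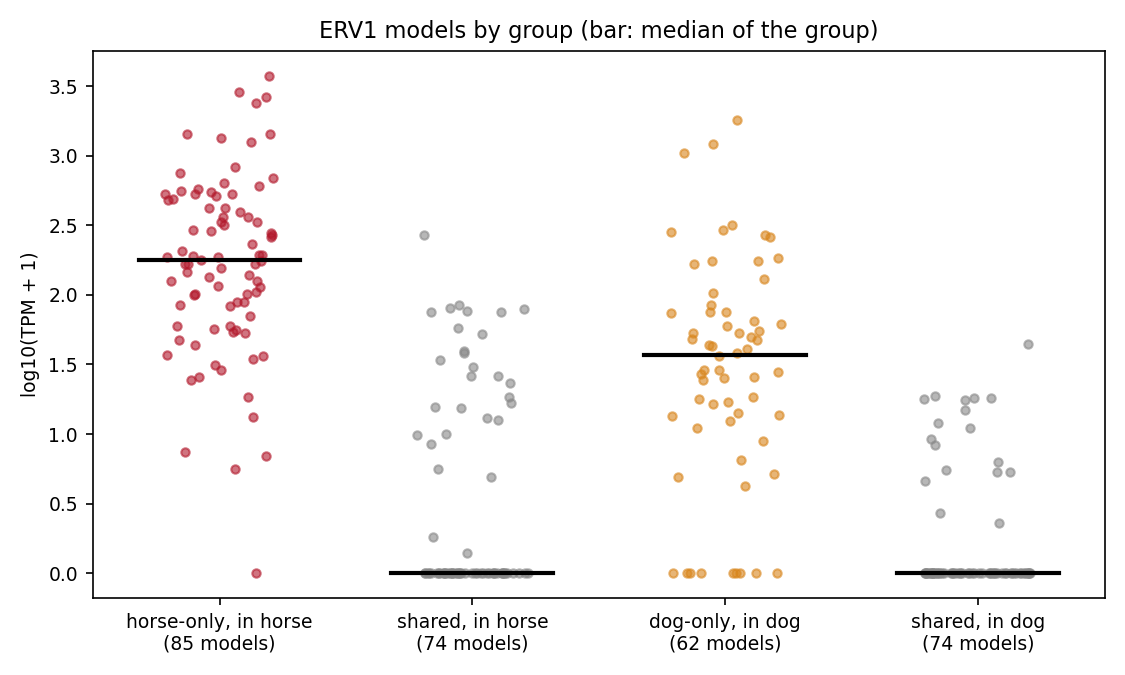
log10(TPM + 1) of every ERV1 model, as a point, in 4 groups: horse-only and shared models in the horse library, and dog-only and shared models in the dog library, with the group median as a bar. The medians of the untransformed values were 177 and 0 TPM in horse and 36.2 and 0 TPM in dog.

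Reads were unevenly spread over the 85 models. This was not particular to them, as 16 horse-only L1 models held 62.2% of the reads of all 722 element models. The 9 models with most reads held over 50% of the reads of the 85, the 10 leading ones held 57.1%, and 36 models held 90%. The model with most reads was ERV1-1N-EC_I, an internal region of 5010 nt, with 1418 reads and 744 TPM (699 to 776). It was followed by the internal regions ERV1-2N-EC_I, with 860 reads and 420 TPM, and ERV1-I_EC, with 770 reads and 269 TPM. These 3 held 24.5% of the reads. Further internal regions among the 15 models with most reads were ERV1-3N-EC_I (548 reads, 233 TPM), ERV1-3-EC_I (519 reads, 185 TPM), ERV1-1-EC_I (457 reads, 155 TPM) and ERV1-5N-EC_I (245 reads, 115 TPM). Of the 20 LTR element models with most reads in the horse library, 16 were horse-only ERV1 models. These make up 85 of the 353 LTR element models.

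Per length, LTR models led. The highest TPM belonged to ERV1-1N-EC_LTR, with 3754 TPM (3439 to 4004) from 676 reads, the 19th highest of the 722 element models. Then came 3 LTRs of the MER34 family, MER34A1_EC with 2877 TPM (2634 to 3081), MER34A_EC with 2622 TPM (2408 to 2791) and MER34B_EC with 2392 TPM (2162 to 2592). ERV1-1N-EC_LTR lay above these 3 beyond the deposited bounds. The bounds of neighbours in this order overlapped between MER34A1_EC and MER34A_EC and between MER34A_EC and MER34B_EC. ERV1-4A-EC_LTR (1423 TPM), ERV1-1-EC_LTR (1419 TPM), ERV1-LTR_EC (1340 TPM) and LTR20_EC (1242 TPM) formed a next group whose bounds all overlapped. LTR1420_EC (823 TPM) and the internal ERV1-1N-EC_I (744 TPM) completed the 10 highest, and LTR8B_EC, a long LTR of 1301 nt, had 272 reads at 558 TPM. In all, 27 of the 85 models were among the 100 element models with the highest TPM, where the 85 are part of 722 element models.

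By name, 12 of the 85 models were internal regions, of 5002 to 8483 nt, and 73 were LTRs, of 396 to 1301 nt. All 12 internal models had reads, as did 72 of the 73 LTR models. The internal models made up 14.1% of the models and held 45.5% of the reads (5648), and the LTR models held 54.5% (6774). Median TPM was 135 in internal models (24.7 to 744) and 186 in LTR models (0 to 3754), a difference of medians of -0.48 on the log2(TPM + 1) scale. This difference was small beside the range within either group, which overlapped over the whole range of the internal models. Of the LTR models 8 lay above 1000 TPM, and none of the internal models did. Counting by length, with the 2 LTRs over 1000 nt (LTR20_EC and LTR8B_EC) placed with the internal models, brought the difference to -0.062.

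Within a family the contrast was larger. An internal model and an LTR model were listed for 11 horse-only families, and the internal model had the lower TPM in 10 of them beyond counting error, while the 11th, ERV1-2N-EC, had nearly equal levels. It was under 0.5 of the LTR level in 9 of the 11 (81.8%). In the other LTR families of the horse library that could be paired by name and had at least 10 reads over both parts, this share was 71.4% (10 of 14). A lower internal level was thus common outside the horse-only ERV1 families too. The 2 shares are not computed alike. In the other families the LTR level was pooled over 1 to 4 LTR models, without the horse-only ERV1 models. The ratio of internal to LTR TPM had a median of 0.201 and ran from 0.0868 to 0.993. The exact 95% interval of the ratio, which covers counting error only, lay below 1 in these 10 families. By reads the order was the other way round, with more reads on the internal model in 10 of 11 families, since internal models are over 10 times as long.

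Among the families with most internal reads, ERV1-1N-EC had 744 TPM in the internal model and 3754 TPM in the LTR, a ratio of 0.198 (0.181 to 0.217). ERV1_EC had 269 TPM in the internal model and 1340 TPM in the LTR, a ratio of 0.201 (0.173 to 0.234). ERV1-1-EC had 155 TPM and 1419 TPM in the internal and LTR models, a ratio of 0.109 (0.0938 to 0.127). In ERV1-1N-EC, ERV1_EC and ERV1-1-EC the LTR stood 4.99 to 9.15 times as high as the internal region per length. ERV1-2N-EC, ERV1-3N-EC and ERV1-3-EC also had more internal reads than ERV1-1-EC, but smaller contrasts. Their LTRs stood 1.01, 2.49 and 1.96 times as high as the internal regions. The internal level was lowest beside its LTR in ERV1-2-EC, with 24.7 TPM against 284 TPM and a ratio of 0.0868 (0.0567 to 0.131). ERV1-2-EC was also the only family of the 11 with fewer internal than LTR reads, 47.0 against 50.6.

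ERV1-2N-EC was the exception in the other direction. Its internal model had 420 TPM (388 to 444) and its LTR 423 TPM (331 to 526), a ratio of 0.993 (0.784 to 1.29), so no difference between them was detectable at this depth. With the full model length in place of the corrected length the ratio was 1.04. ERV1-3-EC (0.5099, 0.406 to 0.645) and ERV1-6-EC (0.486, 0.332 to 0.747) lay next, near a ratio of 0.5. ERV1-3N-EC had a ratio of 0.402, ERV1-4-EC 0.345, ERV1-4N-EC 0.189 and ERV1-5N-EC 0.165. Across the 11 families the internal and LTR levels tended to be high together, with a Spearman correlation of 0.68 over 11 points that share 1 library. The internal region ERV54-EC_I, with 58.5 TPM, had its LTR in both species' lists, and its ratio to that LTR was 0.217 (0.153 to 0.32). Its horse-only LTR variants ERV54B-EC_LTR and ERV54C-EC_LTR had 53.4 and 69.6 TPM, from 8.88 and about 10 reads.

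**Figure D3:**
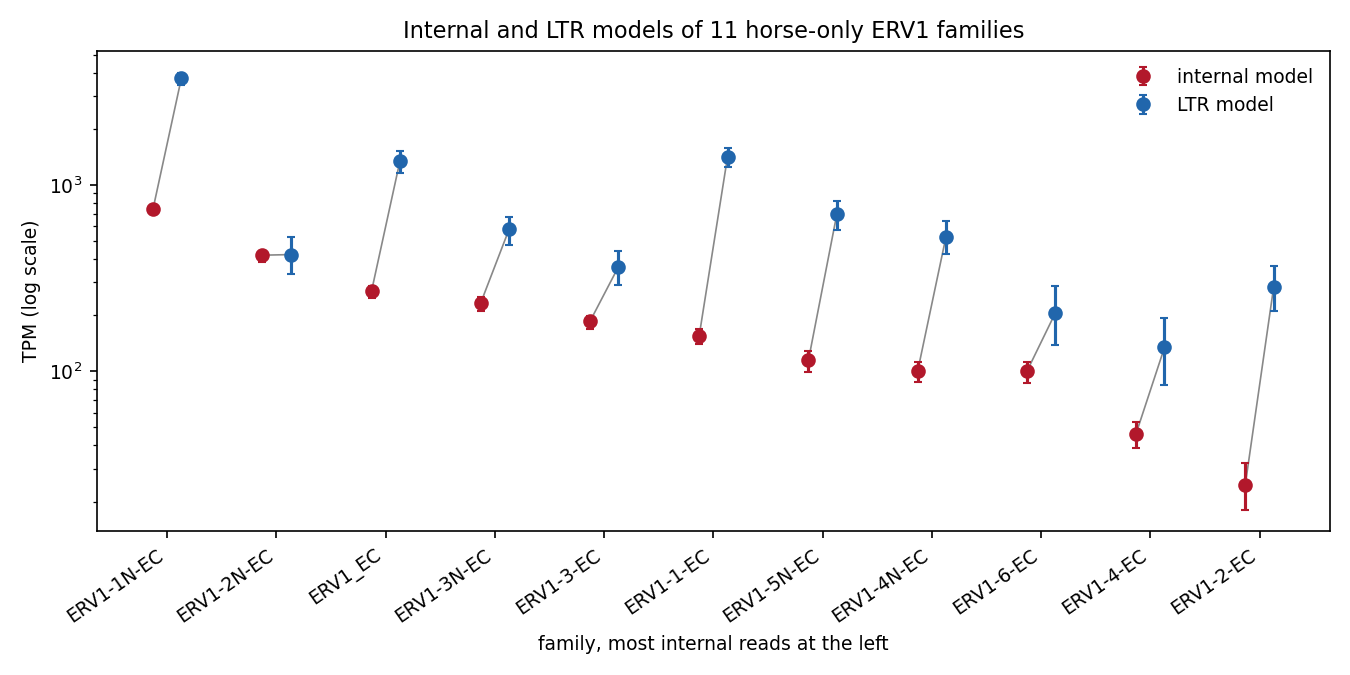
TPM (log axis) of the internal model (left point) and the LTR model (right point) of 11 horse-only ERV1 families, with the bounds deposited by the authors. The LTR lies above the internal model in 10 families and level with it in ERV1-2N-EC, at 420 and 423 TPM.

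For family numbers 1 to 4, the model named with the number and N alone had a higher level than the model named with the number alone, a contrast chosen after its values were seen. In repeat databases N marks a family as non-autonomous, that is, lacking a full set of the proteins it needs to spread. The labels used here do not state this meaning, and coding content was not examined. The internal N model was the shorter in numbers 1, 3 and 4 and the longer in number 2, with 5387 against 5002 nt. Both parts were listed for each name, which gave 8 contrasts, and the N model was higher in all 8, by 1.26 to 17.0 times, with the counting interval above 1 in each. Variants with a further letter or digit were left out of this count, and they do not all keep the order. ERV1-3N1-EC_LTR, an N variant, had 55.4 TPM, below the 363 TPM of ERV1-3-EC_LTR, the 317 TPM of ERV1-3B-EC_LTR and the 177 TPM of ERV1-3C-EC_LTR. ERV1-4N-EC_LTR had 528 TPM, below the 1423 TPM of ERV1-4A-EC_LTR, which has no N. A shared number in these names does not show that the models share sequence. Where they do, a read that matches several models is divided between them, and this division was not tested. The ratios compare reads assigned to models, and their intervals cover counting error only.

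Of the 8 contrasts, the widest was between the internal regions of family number 2. ERV1-2N-EC_I had 420 TPM (860 reads) and ERV1-2-EC_I 24.7 TPM (47.0 reads), a ratio of 17.0 (12.7 to 23.3), while their LTRs were at 423 and 284 TPM, a ratio of 1.49 (1.01 to 2.14). In family number 1 the internal regions were at 744 and 155 TPM for the N model and the model without N, a ratio of 4.80 (4.31 to 5.34), and the LTRs at 3754 and 1419 TPM, a ratio of 2.65 (2.29 to 3.05). Family number 3 differed least, with 233 and 185 TPM in the internal regions (ratio 1.26, 1.11 to 1.42) and 579 and 363 TPM in the LTRs (ratio 1.59, 1.21 to 2.12). In family number 4 the internal regions were at 100.1 and 46.3 TPM (ratio 2.16, 1.75 to 2.66) and the LTRs at 528 and 134 TPM (ratio 3.94, 2.52 to 6.40). ERV1-5N-EC also has a namesake without N, which the file puts under ERVL: ERV1-5N-EC_I had 115 TPM and ERV1-5-EC_I had 19.1 TPM. Of the LTRs, ERV1-5N-EC_LTR had 695 TPM and ERV1-5-EC_LTR 22.3 TPM, a ratio of 31.2 (10.5 to 154) that rests on 3.01 reads of ERV1-5-EC_LTR. The ERVK family ERV2-1-EC, also horse-only, showed the same order, with 167 TPM in the N model and 40.5 TPM in the model without N for the internal regions, and 1573 and 752 TPM for the LTRs.

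**Figure D4:**
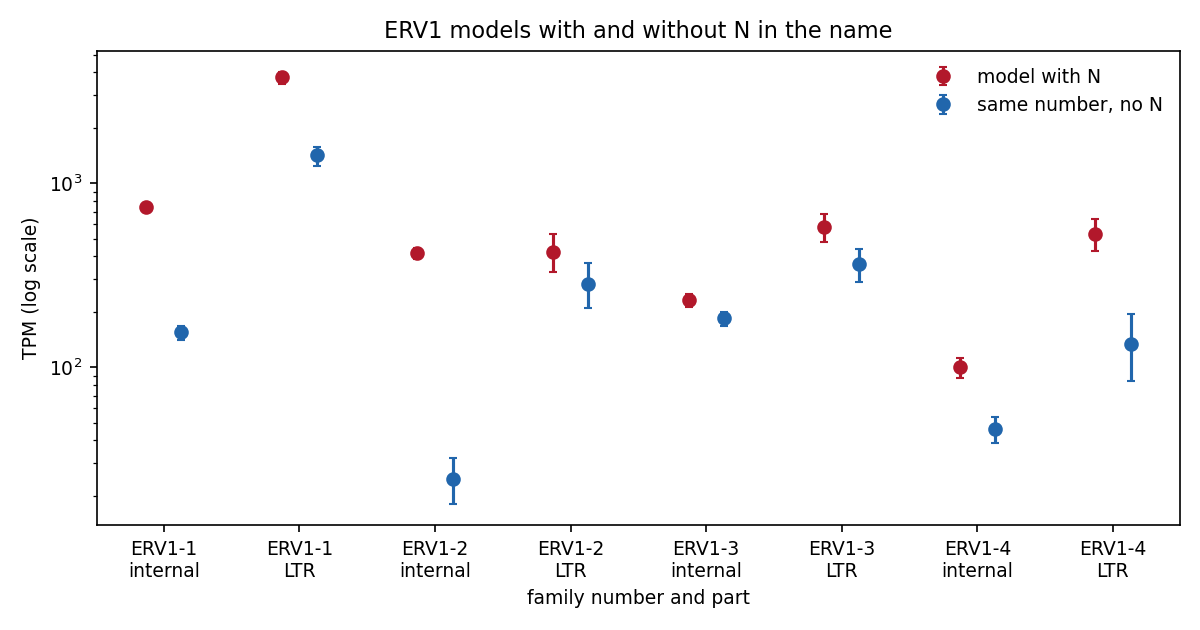
TPM (log axis) of ERV1 models with N in the name (left point) and of the models named with the same number alone (right point), for the internal region and the LTR of family numbers 1 to 4, with the bounds deposited by the authors. The N model is the higher in each of the 8 contrasts, by 1.26 to 17.0 times.

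MER34 gave the highest TPM among LTRs without an internal model of their own in the horse-only set. MER34 is an old ERV1 family of mammals, and the placental envelope gene HEMO of humans came from it. The 8 horse-only MER34 LTRs held 1916 reads, or 15.4% of the reads of the 85 models. MER34A_EC (712 reads), MER34A1_EC (619 reads) and MER34B_EC (471 reads) took 94.0% of these. The other 5 were far lower: MER34C_EC had 194 TPM, MER34G_EC 144, MER34F_EC 137, MER34D_EC 87.4 and MER34E_EC 23.6 TPM. The deposited bounds of the first 3 and of these 5 did not overlap.

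The MER34 models that dog and horse share by name were low in the same library. MER34A1_EC stood at 2877 TPM and the shared MER34A1, of the same length of 587 nt, at 75.8 TPM (43.6 to 118), a ratio of 37.9 (23.6 to 68.1). MER34A_EC stood at 2622 TPM and the shared MER34A at 51.5 TPM (25.4 to 89.6), a ratio of 50.9 (27.7 to 100.4). These ratios compare reads assigned to models, and their intervals cover counting error only. Because a read that matches several models is divided between them, like models in the same file can compete for reads. How alike the EC and shared models are in sequence was not tested. The ratios therefore do not show that separate elements differ in level. The internal models MER34B-int and MER34-int, both shared, had 22.5 TPM (45.8 reads) and 3.92 TPM (12.3 reads), and the shared LTR model MER34 had 25.2 TPM. All 5 shared MER34 models together had 90.1 reads. In dog, MER34A1 had 16.5 TPM and MER34A 17.0 TPM, from about 4 reads each. Of the dog-only models of like name, MER34B_CF had 16.1 TPM, MER34C_CF 13.2 TPM and MER34A_CF 0 TPM.

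**Figure D5:**
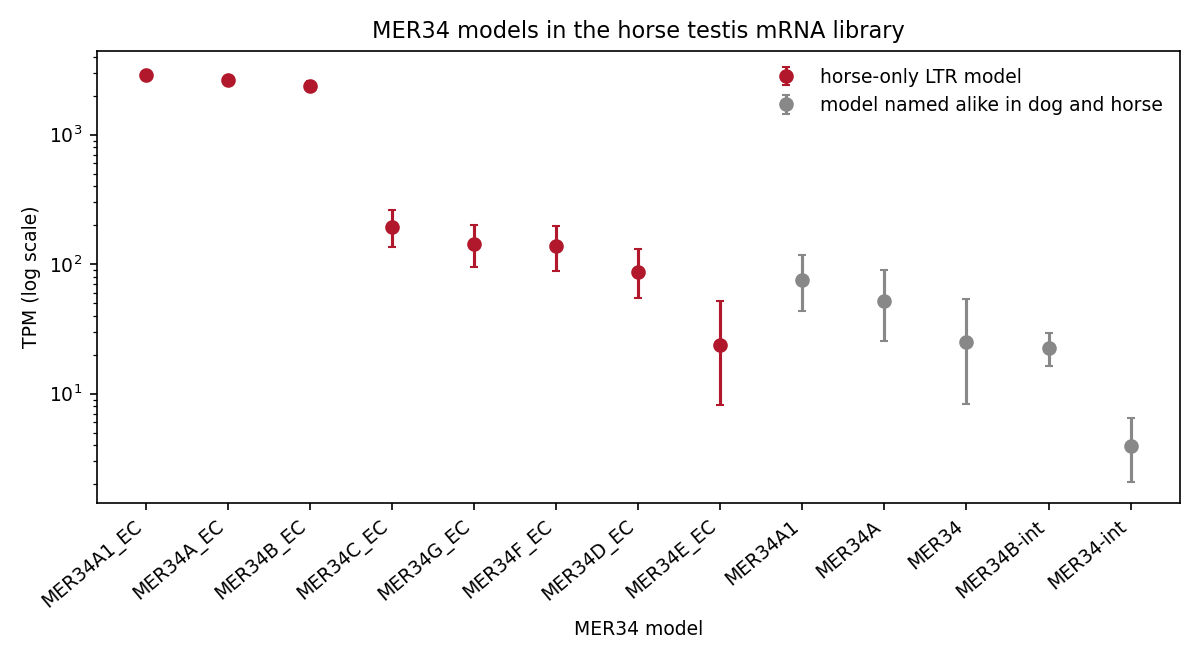
TPM (log axis) of the MER34 models in the horse testis library, the 8 horse-only LTR models at the left and the 5 models named alike in dog and horse at the right, with the bounds deposited by the authors. MER34A1_EC, MER34A_EC and MER34B_EC lie at 2392 to 2877 TPM, and all other MER34 models lie at or under 194 TPM.

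LTR45 and LTR73 also occur with and without the EC suffix, and the EC model was the higher there too. These models were matched by name alone, which does not show that they share sequence. How reads were divided between the EC model and its namesake was not tested either. LTR45_EC had 112 TPM (20.9 reads), and the shared LTR45 had none. With 3 reads taken as the floor for LTR45, the TPM of LTR45_EC was 7.15 times that floor and its deposited lower bound 4.47 times. LTR73_EC had 42.7 TPM (8.97 reads), and the shared LTR73 also had none. Here the TPM was 2.98 times the floor of LTR73 and the lower bound 1.44 times. Both LTR45 and LTR73 were at 0 TPM in dog. The horse models LTR72A_EC and LTR72B_EC had 533 and 55.2 TPM in horse, while the dog models LTR72A_CF and LTR72B_CF had 10.1 and 3.88 TPM in dog, from about 3 reads and 1 read. LTR72A_EC has 473 nt and LTR72A_CF 718 nt. These LTR72 values come from different models in different libraries and give no fold change.

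The 42 LTR models of the numbered LTR series with EC suffix held 2440 reads, or 1.40% of the element reads. They have no internal partner by name among the horse-only models. Their median was 166 TPM (4.64 to 1242), below the 340 TPM of the 20 LTRs of the ERV1-EC families (52.5 to 3754). LTR20_EC alone had 497 reads, LTR8B_EC 272 and LTR1420_EC 212. Variants under 1 number differed by up to an order of magnitude or more in some groups and little in others. Among 7 LTR8 models the highest level was 558 TPM in LTR8B_EC and the lowest 35.7 TPM in LTR8D1_EC, a ratio of 15.6 (7.68 to 32.7). Among 4 LTR13 models LTR13A2_EC (480 TPM) was 15.9 times LTR13B2_EC (30.3 TPM; interval 6.96 to 44.3). LTR72A_EC was 9.66 times LTR72B_EC (5.30 to 21.9). LTR75A_EC was 35.7 times LTR75B_EC, which had 1 read (interval 5.92 to 1464). LTR6B_EC was 5.23 times LTR6_EC (3.08 to 9.43), and LTR19_EC 4.77 times LTR19B_EC (1.24 to 24.1). LTR1_EC and LTR1B_EC, at 392 and 167 TPM, differed by only 2.35 times (1.54 to 3.56), and LTR16B_EC and LTR16A_EC, at 331 and 190 TPM, by 1.74 times (1.20 to 2.55). LTR23B_EC and LTR23_EC had too few reads for a ratio. The pairs named here are the highest and lowest of each group, so their ratios describe the spread only. How reads were divided between variants of like name was not tested, and the intervals cover counting error only.

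The LTR variants of ERV1-EC family numbers 3, 4 and 5 spread by 10.4 to 13.2 times, those of number 2 by 4.09 times (2.43 to 7.16) and those of number 1 by 2.65 times. ERV1-4A-EC_LTR (1423 TPM) was 10.6 times ERV1-4-EC_LTR (134 TPM; interval 7.04 to 16.7), with ERV1-4N-EC_LTR at 528 and ERV1-4B-EC_LTR at 289 TPM between them. ERV1-3N-EC_LTR (579 TPM) was followed by ERV1-3-EC_LTR (363), ERV1-3B-EC_LTR (317), ERV1-3C-EC_LTR (177) and ERV1-3N1-EC_LTR (55.4 TPM). ERV1-5N-EC_LTR (695 TPM) and ERV1-5N2-EC_LTR (640 TPM) had overlapping bounds, while ERV1-5N1-EC_LTR had 258 and ERV1-5N1B_EC_LTR 52.5 TPM. The internal region of ERV1-4-EC, the longest member with 8483 nt, had 46.3 TPM, and that of ERV1-4N-EC had 100.1 TPM. Neither was near the level of ERV1-4A-EC_LTR. An internal level below that of the LTR was common, beyond counting error in 10 of the 11 paired families.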

How the data were processed

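Testis RNA of dog, bat and horse was sequenced, with 1 small RNA and 1 mRNA library per species. Per the submitters' processing notes, Bowtie and RSEM were used, without versions, and CanFam3.1 is named for every sample. Per the file headers, the authors deposited TPM with an upper and a lower bound for each repeat model, scaled to the same sum in each file. The interval level is not given in the sources used here. The bat file also holds expected counts deposited by the authors, which served only to check the read scale. The small RNA lists were not used, since no ERV1 consensus sequence was used here to place them.

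Reads were rebuilt as TPM times the model length minus 24 nt, divided by the lowest common value (2616 in horse, 2322 in dog). As a check, models at 0 TPM had a median upper bound of 2.97 rebuilt reads in horse and dog and 2.96 expected counts in bat. The rebuilding was also run on simulated data made with the same 24 nt correction, so that run could not test the correction itself. Elements were LINE, SINE, LTR, DNA and RC (Helitron) models, uncertain classes included. Depth was 666118 reads in horse and 679582 in dog. A floor of 3 reads was 0.00172% of element reads in horse. Intervals are exact (Clopper-Pearson) 95% intervals on reads rounded to whole numbers. Without molecular identifiers, such intervals and the floor speak of counting error and nothing else. A model was internal where its name held I or int, and LTR where it held LTR or began with MER. Models named were the 15 with most reads, the 10 with the highest TPM, models at 0 TPM, and families with both parts; variants and like-named models were added after their values were seen. The rule for the members uses names only, but this rule and the lists were set with earlier results of these data known. Python 3.11.15, pandas 2.3.3 and scipy 1.17.1 were used.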

Additional observations from a re-analysis of the deposited data

How the results depend on the processing

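The count of models with reads was 84 with at least 1 read, 79 with 3, 70 with 10, and 83 without ERV54-EC_I, whose family name the dog list shares. The deposited lower bounds were above 0 for all models, so the bound could not separate silent models. As a share, 92.9% of the horse-only models had 3 reads or more and 82.4% had 10 or more, and of the shared ERV1 models 16.2% had 10 or more. The share of element reads was 6.96% by TPM and 6.29% without ERV1-1N-EC_I. The internal minus LTR difference was -0.45 with a pseudocount of 10 TPM, -0.49 over models with at least 1 read and -0.062 with parts by length. With full model lengths the ERV1-2N-EC ratio was 1.04, on the other side of 1, and 8 families were under a ratio of 0.5. The remaining settings moved no value beyond its interval or past 1.5 times. No paired analysis was possible because each group held 1 library.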
